A study of Mus musculus with 2 samples.

Results

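Ductal and metaplastic epithelial cells of the mouse pancreas were described here from single-cell RNA counts, as 158 cells among 1413. The members were chosen by their own counts. A member had at least 3 UMIs (unique molecular identifiers, each standing for 1 captured transcript) of Spp1 and Clu together and at least 1 UMI of Krt8, Krt18, Epcam and Sox9 together. It had no UMI of the acinar factor Rbpjl, at most 1 UMI of the T cell genes Cd3d, Cd3e, Cd3g, Trac, Trbc1 and Trbc2, at most 1 UMI of the B cell genes Cd79a and Cd79b, and under 1000 UMIs of the islet hormone gene Ppy. Cells had at least 200 detected genes and at most 20% of UMIs in mitochondrial genes. The rule found 156 of 860 EYFP positive cells, a share of 18.1% (95% Clopper-Pearson interval 15.6 to 20.9%), and 2 of 553 EYFP negative cells, a share of 0.362% (0.0438 to 1.30%). All intervals cover counting error only.

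The cells were pancreatic cells sorted after pancreatitis as EYFP positive and as EYFP negative, from mice of genotype R26[CA]30EYFP on the C57Bl/6J strain background, and each fraction was 1 library. Both groups carry the reporter and both follow pancreatitis, while the treatment field of both reads None. No source used here states how many animals gave the cells, their age, how pancreatitis was induced or how long before. The EYFP positive library held 4006807 UMIs over 1717 barcodes and the EYFP negative library 5295816 UMIs over 745 barcodes. With 1 library per group no difference between the groups has a replicate, and no test was made. The feature table has no reporter transcript, so the sort could not be read in the counts.

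Duct cells line the tubes that carry digestive enzymes out of the pancreas, and they secrete a bicarbonate-rich fluid through the chloride channel CFTR. They are held together by tight junctions and keep their identity through factors such as SOX9. After pancreatitis, acinar cells can lose their enzyme programme and take on ductal features, a change called acinar-to-ductal metaplasia, in which SOX9, keratins, osteopontin (Spp1) and clusterin (Clu) are known markers. The rule uses genes that both kinds of cell can express, and which kind a member was cannot be told apart here.

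Before the results, 3 features of the data bear on every value. First, the libraries shared 4 barcodes. All 4 held 845 to 1058 UMIs in the EYFP positive library and 37662 to 70711 UMIs in the EYFP negative library, the smaller count being 1.28 to 2.24% of the larger. One of them was a member in both libraries, with 15 Spp1 and 8 Clu UMIs on the EYFP positive side and 1118 Spp1 and 718 Clu UMIs on the EYFP negative side. Without shared barcodes 155 EYFP positive members and 1 EYFP negative member remained.

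Second, the EYFP positive members came in 3 kinds, a split made after the values were seen. The 28 deep members had at least 5000 UMIs and 1000 genes and held 79.9% of the 654094 member UMIs. The 124 shallow members held 501 to 1887 UMIs each, with a median of 753, and 15.7% of the UMIs. In the other 4 cells the acinar secretory genes (digestive enzymes and their companions) made up 77.6 to 85.8% of UMIs, against a median of 0.270% in the deep members. These 4 acinar-rich cells had 4 to 8 UMIs of Clu and none of Spp1, Epcam, Sox9 or Tm4sf4. Their counts go against the name of ductal or metaplastic cells. They met the rule and stay among the members in every summed value below, and without them 2095 genes instead of 1942 were at least 2-fold higher than in other cells.

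**Figure D1:**
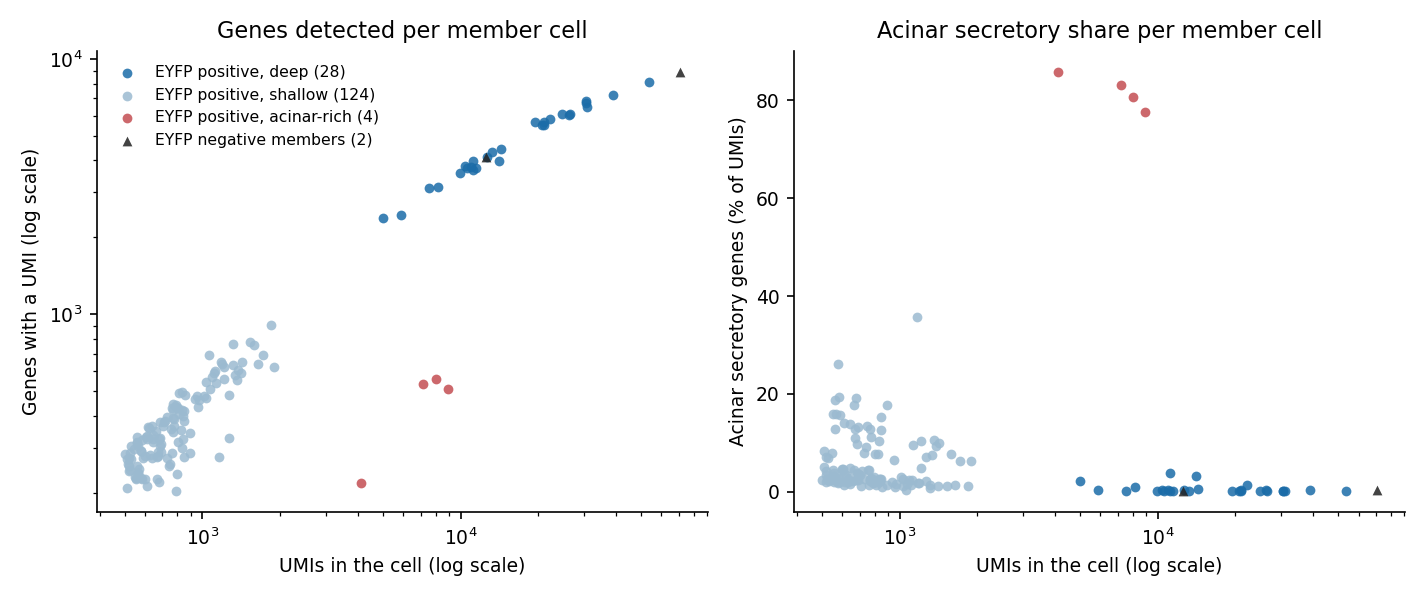
Each point is 1 member cell. Both panels have the UMIs of the cell on a log axis, the left panel plots the genes detected (log axis) and the right panel the percent of UMIs in acinar secretory genes. The 28 deep EYFP positive members and the 2 EYFP negative members lie at 5000 UMIs or more with few acinar UMIs, the 124 shallow members reach at most 1887 UMIs, and the 4 acinar-rich members stand apart in both panels.

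Lastly, duct transcripts were also counted in cells that should lack them. At least 1 Spp1 UMI was found in 63 of 297 lymphocytes of the EYFP positive library, or 21.2% (16.7 to 26.3%). The share in members is set by the rule, and no contrast is read from it. For Tm4sf4, which the rule did not use, the shares were 58.3% of EYFP positive members and 9.09% of lymphocytes. Median depth was 811 UMIs in the members and 1631 UMIs in the lymphocytes. With every cell thinned to 500 UMIs the Tm4sf4 shares were 45.5% of members and 4.71% of lymphocytes.

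The 7 marker genes were read first. All lie on GRCm38 chromosomes as protein-coding genes of GENCODE M21, with Spp1 at 5:104435118-104441050, Clu at 14:65968483-65981547 and Tm4sf4 at 3:57425314-57441677, all on the plus strand. The keratin genes Krt8 (minus strand, 15:101996698-102004482) and Krt18 (plus strand, 15:102028180-102032027) are neighbours. Epcam lies at 17:87635979-87651129 and Sox9 at 11:112782224-112787760, both on the plus strand. The mapping build of the counts is not taken as known, so these positions belong to the annotation and not to the reads.

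Spp1, the secreted matrix protein osteopontin, reached 0, 22326 and 42400.0 CPM (UMIs of the gene for every 1000000 UMIs of the cell) as the lowest, median and highest of the 28 deep EYFP positive members, against 15811 and 32410.0 CPM in the 2 EYFP negative members. Clu, a secreted chaperone, reached 978, 8001 and 13800.0 CPM in the deep EYFP positive members, against 10154 and 7424 CPM in the EYFP negative members. Both EYFP negative cells lay inside the EYFP positive range for both genes. A single deep member held no Spp1 UMI. The other 27 held 80 to 1181 UMIs each.

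The keratin genes and Epcam were found in every deep member. Krt8, a simple-epithelium keratin, ran from 448 to 3579.9 CPM with a median of 1915 CPM in the deep EYFP positive members, and its partner Krt18 from 511 to 2861 CPM with a median of 1972 CPM. In the EYFP negative members Krt8 stood at 1683 and 1676 CPM and Krt18 at 2178 and 2235 CPM. Epcam, an epithelial adhesion molecule, ran from 497 to 3200.0 CPM (median 1566), against 1174 and 1756 CPM in the EYFP negative members. Both EYFP negative members lay inside the EYFP positive range for each of these genes.

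Tm4sf4, a tetraspan membrane protein, is the marker that did not choose the cells. It was found in all 28 deep EYFP positive members, at 627 to 3287 CPM with a median of 1459 CPM, and in the 2 EYFP negative members at 1513 and 1517 CPM. Sox9, the ductal and progenitor transcription factor, spread more widely, from 179 to 5619.9 CPM with a median of 1256 CPM, against 2531 and 1118 CPM in the EYFP negative members. Over the summed UMIs, the ratio of deep EYFP positive members to EYFP negative members was 1.01 for Tm4sf4 (0.838 to 1.23) and 0.611 for Sox9 (0.521 to 0.720). The EYFP negative Sox9 sum rests mainly on the cell with the shared barcode, which gave 179 of its 193 UMIs.

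**Figure D2:**
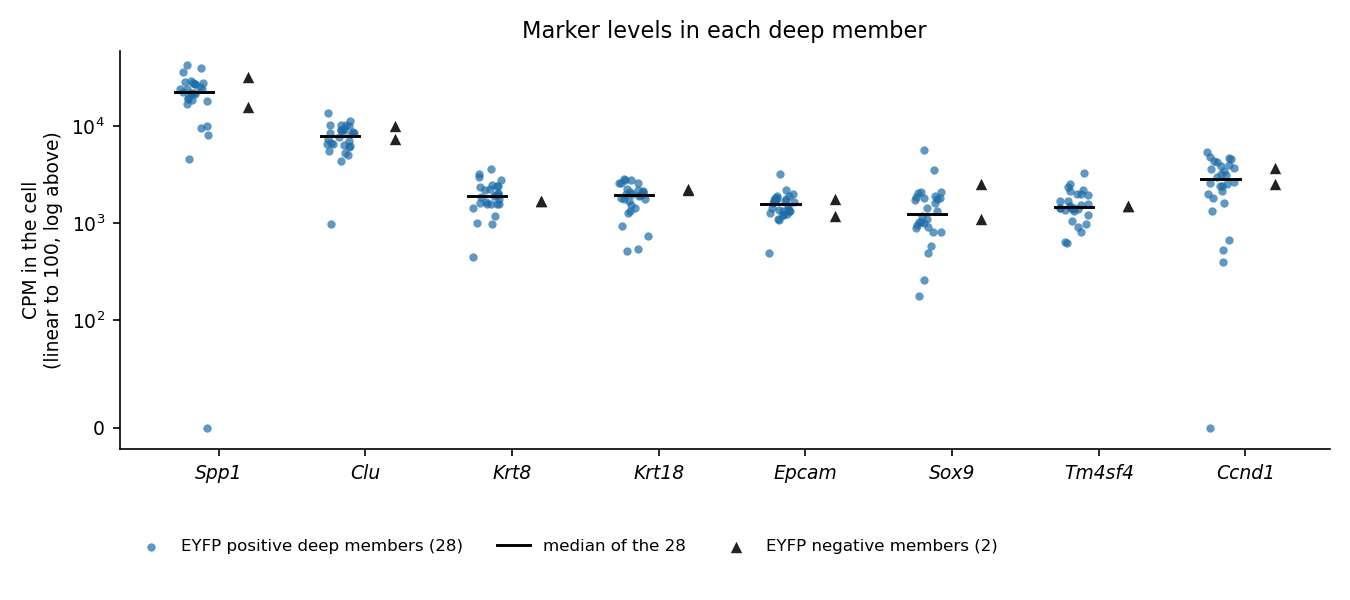
Level of 8 genes in single cells, in CPM of the cell's own UMIs (linear to 100, log above). Circles are the 28 deep EYFP positive members with their median as a bar, and triangles are the 2 EYFP negative members, which lie inside the EYFP positive range for every gene shown.

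In the shallow members the same markers were present at lower levels. Tm4sf4 summed to 981 CPM (799 to 1191) in the 124 shallow members and 1532 CPM (1428 to 1642) in the 28 deep members. It was at 0 UMIs in the 4 acinar-rich members, and it summed to 267 CPM (219.5 to 323) in 95 acinar cells (cells with Rbpjl) and 47.2 CPM (34.7 to 62.8) in lymphocytes. The ribosomal RNA-derived transcript Gm42418 took 24.9% of UMIs in shallow members and 2.19% in deep members. Its part in the lower levels was not tested. Near the threshold, 10 cells with 3 UMIs of Spp1 and Clu together and 9 cells with 4 lay just inside, and 11 cells with 2 UMIs, meeting all other conditions, lay just outside. The ductal identity genes summed to 2280.1 CPM at 3 UMIs, 648 CPM at 4 UMIs and 2372 CPM at 2 UMIs. Of the 9 cells with 4 UMIs 2 were acinar-rich, and without them the value was 1714 CPM.

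Markers of other cell types were read in the members. At least 2 UMIs of any list of another cell type were found in 46 of 156 EYFP positive members, in 14 of the 28 deep ones and 32 of the 124 shallow ones. In the shallow members these were mostly leukocyte genes, with 100 UMIs in all and 26 cells at 2 UMIs or more, against 1 UMI in the deep members. In the deep members they were mostly genes of the pericyte list, with 52 UMIs of Rgs5, Notch3 and Cspg4, while Acta2, Pdgfrb, Des, Tagln and Myh11 were at 0. The fibroblast list held 2 UMIs in all members and 4741 UMIs in the 704 other cells, and the granulocyte list held none in members and 7 UMIs in the other cells. Without members that carry such markers, 1291 genes instead of 1942 were at least 2-fold higher than in other cells.

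Ductal RNA was next set against acinar RNA in each kind of cell. The ductal identity list holds 15 genes the rule did not use, among them Krt19, Krt7, Cftr and Pkhd1. For every 100 acinar secretory UMIs, the deep EYFP positive members held 110.2 ductal identity UMIs, the shallow members 4.27, the acinar-rich members 0.0219 and the EYFP negative members 205. The same ratio was 1.47 in acinar cells, 1.05 in lymphocytes, 10.2 in fibroblasts and 3.90 in endothelial cells. The shallow members lay among the non-epithelial sets by this ratio, while by level the list reached 2437 CPM in shallow members, against 1164 CPM in fibroblasts, 340.1 CPM in endothelial cells and 109 CPM in lymphocytes. In single deep members the list ran from 3691 to 8093 CPM, with a median of 5329 CPM, against 6166 and 4869 CPM in the EYFP negative members.

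**Figure D3:**
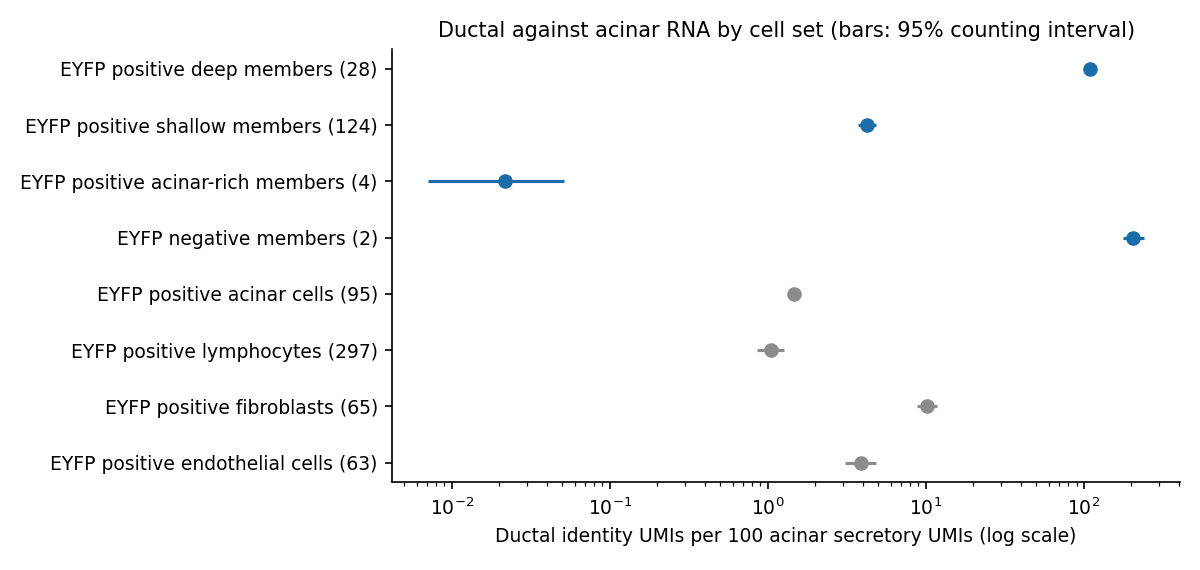
Ductal identity UMIs for every 100 acinar secretory UMIs in each set of cells, on a log axis, with 95% counting intervals as bars and the number of cells in brackets. Deep EYFP positive members (110.2) and EYFP negative members (205) stand over all other sets, and the 4 acinar-rich members (0.0219) under all of them.

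The members were then compared with the 704 other cells of the EYFP positive library and with its 95 acinar cells, over summed UMIs. Against other cells 1942 of 8910 genes with at least 30 UMIs, or 21.8%, were at least 2-fold higher and 1494, or 16.8%, were at least 2-fold lower. Against acinar cells 1255 of 5557 genes, or 22.6%, were at least 2-fold higher and 618, or 11.1%, were at least 2-fold lower. The median over all tested genes was a log2 fold of 0.26 against other cells and 0.33 against acinar cells. The rule chose the members on their counts in this same contrast, so all folds are descriptions. Gene lists were read at a lower minimum of 10 UMIs. There 24.4% of all 11858 genes were at least 2-fold higher and 19.7% at least 2-fold lower than in other cells, and against acinar cells these shares were 22.6% and 14.9% of 9616 genes. Each count of a list is read beside them. The acinar cells were a mixed set, since 19 of the 95 held at least 2 T cell UMIs and 16 met the Spp1, Clu and keratin conditions of the members. In 40 of the 95 the choice rested on 1 Rbpjl UMI. Of the 635 ductal identity UMIs of that set, 91.5% lay in 10 cells.

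A cell cycle gene ranked 7 among the leading genes against other cells. Ccnd1, encoding cyclin D1, which drives entry into the cell cycle, summed to 2468 CPM in members and 103 CPM in other cells, a 24.0-fold difference (20.8 to 27.8). It was found in 27 of 28 deep members, at up to 5478 CPM with a median of 2831 CPM, and at 2531 and 3752 CPM in the EYFP negative members. Against acinar cells Ccnd1 was 12.6-fold higher (10.0 to 15.9), and the 80 UMIs of the acinar set lay in 8 of its 95 cells. Among genes of replication and division, Top2a and Pcna, named after their values were seen, had few UMIs. Top2a, needed to separate chromosomes at division, had 1 UMI in members, and Pcna, a replication clamp, had 18 UMIs in members and a log2 fold of -0.43 against other cells. Gmnn, which blocks a repeat of DNA replication, was among the leading genes against acinar cells. The listed genes with the most member UMIs after Ccnd1, namely Ccnd2, Hmgb2, Stmn1 and Mcm6, are not described. Of 11 measured genes of the cell cycle list 6 were at least 2-fold higher and 1 was at least 2-fold lower than in other cells, against 24.4% and 19.7% of all genes. The median log2 fold of that list was 1.06, and it changed sign to -0.33 as a mean over cells and to -0.03 without members that carry markers of other types.

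The other leading genes were of several kinds. Mmd2 had 72 UMIs in 30 members and none in other cells, so it was at least 76.7-fold higher. Hs6st2, a heparan sulfate sulfotransferase, had 69 UMIs in members and 3 in other cells, a ratio of 73.5 (24.1 to 365). Wfdc3, of the whey acidic protein family, had 82 UMIs in members and 2 in other cells, a ratio of 131 (35.1 to 1101). Mmd2, Hs6st2 and Wfdc3 were all at 0 UMIs in acinar cells. Mme, the membrane peptidase neprilysin, was 51.2-fold higher than in other cells (24.0 to 130.2), at 171 and 3.35 CPM.

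Pigr, the receptor that carries immunoglobulin A across epithelium, summed to 446 CPM in members and 12.9 CPM in other cells, 34.6-fold higher (23.3 to 53.4). In single deep members it ran from 0 to 2337 CPM with a median of 423 CPM, and 1 cell held 62 of 292 UMIs. The EYFP negative members stood at 311 and 399 CPM of Pigr. Apoc1, a lipoprotein component, was 27.4-fold higher (19.4 to 39.9) and was found in 20 of the 28 deep members. The EYFP negative members stood at 976 and 2634 CPM of Apoc1, against a median of 224 CPM in the deep EYFP positive members, and the second of those values lay over the EYFP positive maximum of 2033 CPM.

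Kcne3, a potassium channel subunit of epithelia, was 33.7-fold higher (19.1 to 64.9) and Slc28a3, a nucleoside transporter, 27.6-fold (17.7 to 45.1). Ncald, a calcium sensor, Aldoc, a glycolytic aldolase, and Sema5a, a semaphorin, were 33.3-fold, 36.6-fold and 26.3-fold higher. The carboxylesterase Ces1d, at 954 and 44.0 CPM, and Dcdc2a, a doublecortin-domain protein, at 991 and 46.9 CPM in members and other cells, were 21.7-fold and 21.1-fold higher. Tstd1 was 20.3-fold higher. Lrrn1 had 55 UMIs in members and 2 in other cells, a ratio of 87.9 (23.2 to 744), and Stra6l 36 and 2, a ratio of 57.5 (14.8 to 493). Spink4 had 34 UMIs in members, and Ugt8a and Ugt2b35 had 29 each, against 1 UMI of each gene in other cells, with lower interval bounds of 18.2, 15.4 and 15.4.

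**Figure D4:**
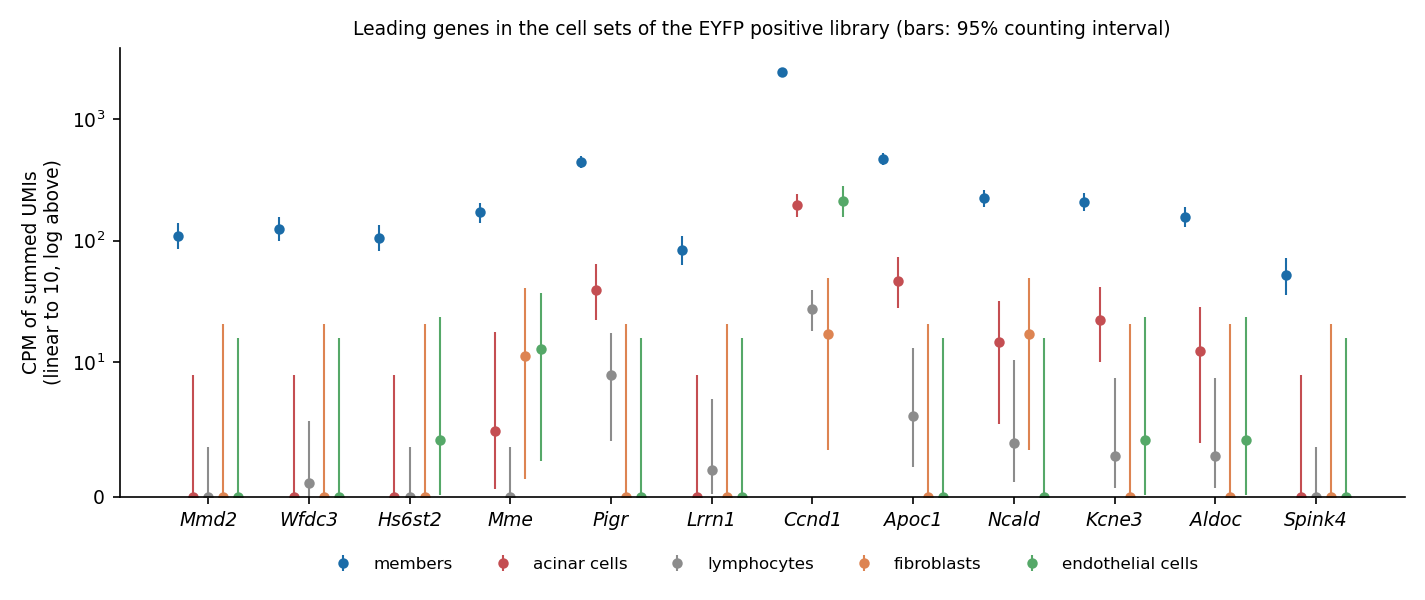
Summed level (CPM, linear to 10 and log above) of the 12 leading genes in members and in 4 other cell sets of the EYFP positive library, with 95% counting intervals as bars. The 12 genes were ranked on members against all other cells, which include these 4 sets. That the members stand highest for all 12 genes follows largely from that ranking. Ccnd1 and Pigr also show counts in acinar cells, at 196 and 39.2 CPM.

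Against acinar cells the leading genes also included Adamts1, Prelp, Slc38a4 and Gmnn. Adamts1, a secreted matrix protease, was 16.5-fold higher (9.32 to 32.3), at 486 and 29.4 CPM. Prelp, a small leucine-rich proteoglycan, was 34.0-fold higher (9.18 to 284) and the amino acid transporter Slc38a4 27.4-fold (7.37 to 230.0), each over 2 UMIs in acinar cells. Gmnn, geminin, which blocks a repeat of DNA replication, was 14.2-fold higher (6.71 to 35.8).

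The genes lowest in members against other cells belonged to other cell types. C1qb (macrophages), Flt1 (endothelium), Col1a2 and Clec3b (fibroblasts) had no UMI in members and 631, 588, 454 and 454 UMIs in other cells. They were at least 65.8-fold, 61.3-fold, 47.3-fold and 47.3-fold lower. Dcn, Col3a1 and Jchain each had 1 UMI in members, and Pyy and Lyz2 each had 3. Pyy is of the endocrine list, and 8284 of that list's 8436 UMIs in other cells lay in 1 cell, which the Ppy condition kept out of the members. Igkc, an antibody light chain, was 56.4 times lower (44.5 to 72.7) yet still had 68 UMIs over 44 members.

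Duct identity genes followed the markers. Of the 15 genes 13 were at least 2-fold higher than in other cells and none was 2-fold lower, with a median log2 fold of 3.66 against 0.27 over all genes, of which 24.4% were higher and 19.7% lower. Against acinar cells 10 of 14 were higher and 2 lower, with a median of 1.83, against 0.24 over all genes, of which 22.6% were higher and 14.9% lower. Krt19, the duct keratin, ran from 0 to 1049 CPM in the deep EYFP positive members with a median of 269 CPM, against 240.4 and 79.8 CPM in the EYFP negative members. Krt19 was found in 25 of 28 deep members, and over all members it was 9.43-fold higher than in other cells (7.02 to 12.8). Cftr, the chloride channel of duct fluid secretion, was 30.9-fold higher (13.4 to 87.7), but it was found in 15 of 28 deep members, with 1 of them at 1703 CPM and a median of 68.3 CPM. Anxa3 was an exception, with a log2 fold of -1.52 against acinar cells and 26 of its 55 member UMIs in 1 cell. A stricter set of 35 acinar cells, those with at least 3 Rbpjl UMIs and no markers of other types, held no Anxa3 UMI. Against it Anxa3 was at least 3.67-fold higher in members, so its direction changed.

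Pkhd1, which encodes the ciliary duct protein fibrocystin, was 15.3-fold higher in members than in other cells (11.3 to 21.3), with 0 to 1362 CPM and a median of 483 CPM in deep EYFP positive members, against 764 and 559 CPM in EYFP negative members.

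Genes of duct fluid and of cell junctions were also higher. All 18 measured junction genes were at least 2-fold higher than in other cells, with a median log2 fold of 3.33, and 14 of 18 against acinar cells, with a median of 1.35. Of all genes 24.4% were that much higher than in other cells and 22.6% than in acinar cells. The claudins Cldn10 and Cldn3, strands of tight junctions, had log2 folds of 4.27 and 3.56 against other cells and 3.09 and 1.70 against acinar cells. Cdh1, E-cadherin, had log2 folds of 3.65 and 1.83. Of 12 ion and fluid transport genes 10 were higher and 1 lower in each comparison, where 19.7% and 14.9% of all genes were lower than in other cells and in acinar cells. Atp1b1, a subunit of the sodium pump, had a log2 fold of 3.92 against other cells, and Car2, carbonic anhydrase, 3.22. The water channel Aqp1 was the lower one, with 7 UMIs in members, 232 in other cells and a log2 fold of -3.28. Against the acinar cells Aqp1 stood at -2.27. The 35 stricter ones held no Aqp1 UMI, and at their depth no direction was detectable.

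**Figure D5:**
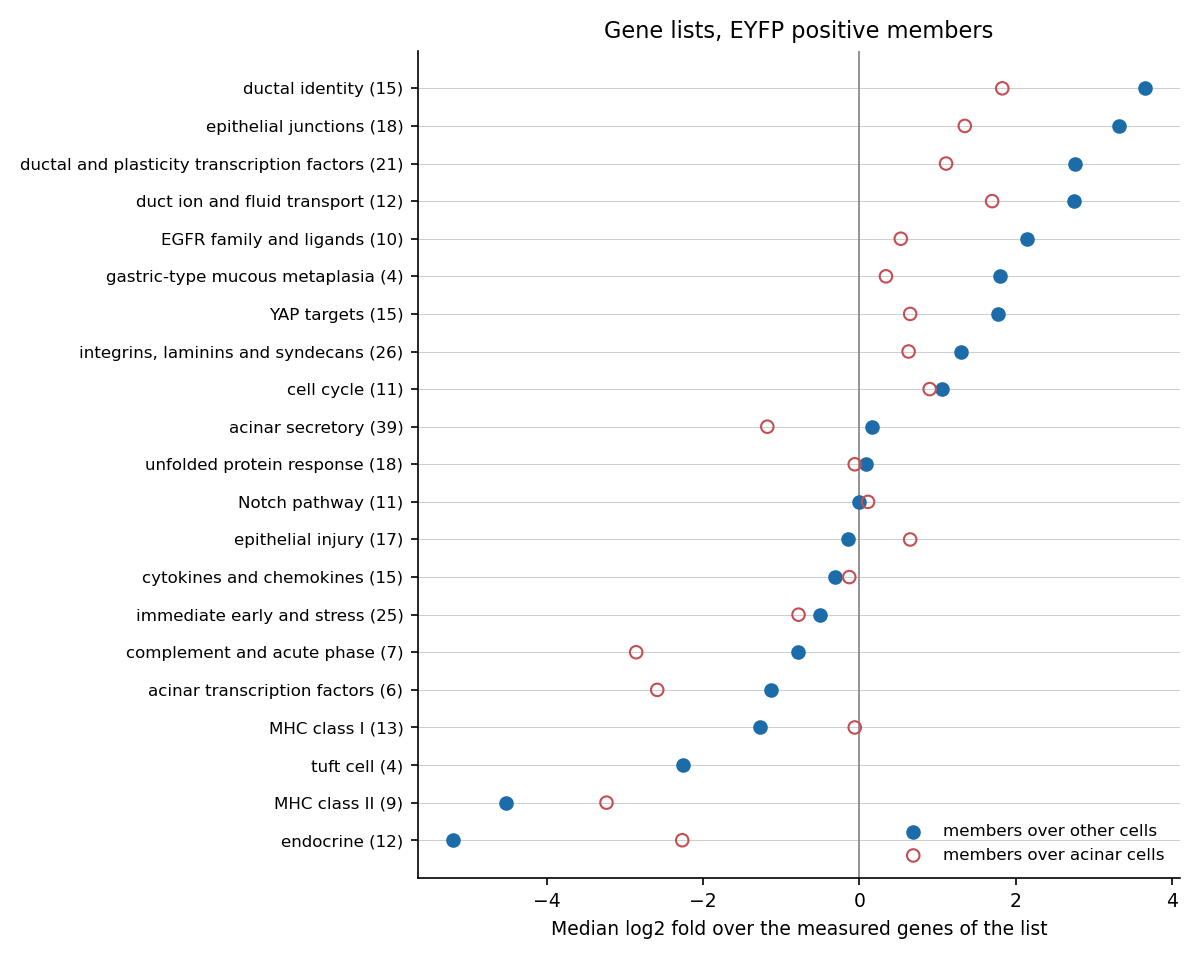
Median log2 fold of each gene list in EYFP positive members, over other cells (filled) and over acinar cells (open), with the number of genes measured against other cells in brackets. Against other cells the ductal identity list (3.66) and the junction list (3.33) lie highest and the endocrine and MHC class II lists lowest, the endocrine median being -2.61 once genes at 0 are set to the floor of 3 UMIs. Of the 8436 endocrine UMIs of the other cells, 8284 lay in the 1 cell that the Ppy condition kept out of the members. Marker lists of other cell types are not drawn.

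Transcription factors of the ductal and of the acinar lineage were read next. Of 21 ductal and plasticity factors 16 were higher and 4 lower than in other cells, with a median log2 fold of 2.76, and 13 were higher and 4 lower than in acinar cells, with a median of 1.11. Of all genes 24.4% were higher and 19.7% lower than in other cells, and 22.6% and 14.9% than in acinar cells, so the count of lower factors against other cells was near that of all genes. Prox1, Onecut1, Ehf and Gata6, regulators of duct or epithelial development, had log2 folds of 4.34, 4.27, 4.02 and 3.60 against other cells and 2.26, 1.91, 2.02 and 1.71 against acinar cells. Klf4, Runx1, Id1 and Id3 were the lower ones, with log2 folds of -1.97, -2.68, -3.63 and -5.76 against other cells. Of 6 measured acinar factors 1 was higher and 3 were lower than in other cells, with a median of -1.13 (-4.35 to 3.21). Against acinar cells, a set chosen by the acinar factor Rbpjl, 1 was higher and 4 were lower. Among them Bhlha15 had no UMI in members and 30 in acinar cells, and Ptf1a had 2 and 26 UMIs. Nr5a2, which both acinar and duct cells can express, was 2.28-fold higher than in acinar cells (1.53 to 3.48).

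Acinar secretory genes depended on 4 cells. Of 36 measured genes 25 were at least 2-fold lower than in acinar cells and 1 higher, where 14.9% of all genes were lower and 22.6% higher. The median log2 fold of the list was -1.18, and against other cells the median was 0.16. Without the 4 acinar-rich members, which held 73.0% of the members' acinar UMIs, the medians were -3.47 against acinar cells and -1.84 against other cells. Cpa1, a carboxypeptidase proenzyme, summed to 91.8 CPM in deep members, 1748 CPM in shallow members and 27610.4 CPM in acinar-rich members, against 4146 CPM in acinar cells and 328 CPM in lymphocytes. The pancreatitis proteins Reg3a, Reg3b and Reg3g had no UMI in any member.

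Markers of metaplasia beyond the ductal state were sparse. Of the gastric-type mucous list 4 genes were measured, and 12 had no UMI in members. Tff2, a mucus-stabilising peptide, had 282 UMIs in members, of which the 4 acinar-rich cells held 65, 55, 49 and 19, and the 28 deep members 38. Wfdc2, a secreted protease inhibitor, had a log2 fold of 3.64 against other cells. The tuft cell list had 15 UMIs in members, all in deep ones, with Pou2f3 and Trpm5 at 0, and the endocrine list 16 UMIs. Other cells held 8436 endocrine UMIs, of which 8284 lay in the single cell that the Ppy condition had kept out of the members, and all the others 152.

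Injury, growth factor and YAP target genes went both ways. Of 17 injury genes 5 were higher and 7 lower than in other cells, and 24.4% of all genes were higher and 19.7% lower, so the count of higher injury genes was near that of all genes. Lcn2, an iron-carrier binding protein of injured epithelium, had a log2 fold of 4.52, and the annexins Anxa4 and Anxa5 2.84 and 2.65. Nupr1, a stress-response regulator, had a log2 fold of -1.91 against other cells and -4.09 against acinar cells. Lgals3 and S100a6 had log2 folds of -5.98 and -4.69 against other cells. Beside the same shares of all genes, 11 of 15 YAP targets were higher and 2 lower than in other cells, led by Ankrd1 at 4.10 and Wwc1 at 3.27. The list of the EGFR family and its ligands also holds other growth factor receptor genes, such as Fgfr2 and Met. Of its 10 measured genes 7 were higher and 1 lower than in other cells. The fibroblast growth factor receptor Fgfr2 stood at 3.96 and the EGFR ligand Tgfa at 3.86. Against acinar cells the medians of the YAP list and of this wider EGFR list were 0.65 and 0.53.

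Stress and immune lists differed in how they stood. Among 25 genes of stress and the immediate early response 10 were lower and 3 higher than in other cells, where 19.7% of all genes were lower and 24.4% higher. The median log2 fold of the list was -0.51. All 9 MHC class II genes were lower than in other cells, with a median of -4.53, and none of 13 MHC class I genes was higher while 10 were lower. Of 18 genes of the unfolded protein response 0 were higher, 2 lower and 16 within 2-fold of other cells, with a median of 0.08. In the comparison with acinar cells 22.6% of all genes were higher and 14.9% lower. There 0 of 13 MHC class I genes were higher, 4 were lower and 9 lay within 2-fold, with a median of -0.06. Against acinar cells 5 of 6 MHC class II genes were lower, with a median of -3.24. Against the 35 stricter acinar cells that median was 1.66 and so changed sign. These folds use summed UMIs, and the deep members held 79.9% of the member UMIs. With cells thinned to equal depth, MHC class II UMIs were found in 42.7% of shallow members and 7.14% of deep ones. Of all members 35.3% held such UMIs, against 33.9% of other cells and 16.8% of acinar cells. The mean per thinned cell was 0.92 UMIs in members, 2.76 in other cells and 1.02 in acinar cells.

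Differences among the deep members were ranked by the ratio of variance to mean, which tends to be larger for abundant genes. Over 3152 genes with at least 30 UMIs in these 28 cells, the median ratio of variance to mean across the 28 cells, each scaled to the same total, was 1.16, where counting noise alone gives about 1. The nuclear transcript Malat1 reached 94.9, the acinar secretory gene Clps 87.6 and Spp1, a gene of the rule, 60.4. Lars2, Apoe and the acinar secretory gene Ctrb1 reached 32.9, 27.8 and 26.2. Hes1, a Notch target, reached 25.2 and ran from 0 to 5752 CPM with a median of 452 CPM. Fosb and Jun, of the AP-1 family, reached 20.2 and 15.9, with Fosb running from 0 to 3057 CPM and Jun from 179 to 5880.4 CPM. Sox9, Adamts1, Cftr and Apoc1 reached 10.9, 10.9, 10.3 and 10.1. The standard deviation over the mean gave another order, with 0.433 for Malat1 and 0.438 for Spp1. By that measure Clps stood at 2.02, Hes1 at 1.52 and Fosb at 2.26. Complement C3 was seen in 7 of the 28 cells at up to 979 CPM.

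Genes of motile cilia were found in 3 of the 28 deep EYFP positive members, by a list of 23 genes drawn up after the values were seen. These cells held 166, 94 and 38 UMIs of the list, and no other deep member held more than 9. They carried 31, 14 and 18 UMIs of Foxj1, the regulator of motile cilia, and 27, 7 and 6 UMIs of Tppp3. The first and the last also held 305 and 577 Spp1 UMIs. The second was the deep member without Spp1, with 8 Clu, 12 Tm4sf4, 10 Epcam and 31 ductal identity UMIs. The list had no UMI in the 2 EYFP negative members, and among the 704 other EYFP positive cells none held more than 12.

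The EYFP positive and EYFP negative members were set side by side over 355 genes with at least 30 UMIs in both the 28 deep members and the 2 EYFP negative members. Of these genes 2 were at least 2-fold higher and 16 at least 2-fold lower in the EYFP positive members, and for 329, or 92.7%, both EYFP negative cells lay inside the range of the single deep members. The 2 higher were Gm42418, at 21885 and 5899 CPM, and the lipase cofactor Clps, at 1161 and 457 CPM. Among the 16 lower were the immediate early genes Egr1, Junb, Fos, Dusp1 and Ier3, named after their values were seen, with ratios of 0.273, 0.265, 0.418, 0.169 and 0.167. In the EYFP negative cell with the shared barcode they held 118, 127, 102, 33 and 42 UMIs, and in the other EYFP negative cell 0, 5, 0, 0 and 0, so these ratios rest on 1 cell. With 2 cells on that side, smaller differences were not detectable at this depth.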

How the data were processed

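The authors deposited 2 libraries as raw UMI counts, whole numbers for each gene and cell barcode. Per the labels' protocols the Chromium Single Cell 5′ kit, version 1.1, was used, and each library had its own sequencing lane. The submitters' processing notes name Cell Ranger 2.1.0 and GRCh38. The software version per the file headers is 3.1.0, and the genes carry mouse identifiers. The mapping build is therefore not taken as known.

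The counts were read in Python 3.11.15 (numpy 2.4.6, scipy 1.17.1, scanpy 1.11.5). Kept were 860 EYFP positive and 553 EYFP negative barcodes, each with 200 detected genes or more and 20% mitochondrial UMIs or fewer. UMIs were summed over each set of cells and divided by the set's total (CPM). The 95% interval of a fold is the exact binomial one, given the sum of both counts, and that of a share is Clopper-Pearson's. PCR and cell-to-cell variation are not covered. Where 1 of the 2 sums was 0, it was set to a floor of 3 UMIs and the fold given as a lower bound. Log2 folds use a pseudocount of 0.5 UMI, list medians included. Folds were called over genes with at least 30 UMIs and list members over genes with at least 10. Thinning drew each cell to 500 UMIs. Lymphocytes had at least 2 UMIs of the T or B cell genes of the rule, fibroblasts at least 3 UMIs of Col1a1, Col1a2, Col3a1, Dcn and Lum, and endothelial cells at least 3 UMIs of 6 marker genes. Doublets were kept, and of the cells that Scrublet marked, 2 EYFP positive ones and 5 EYFP negative ones, none was a member. The fold step was checked on simulated counts.

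Named genes were the 7 markers, the genes of the rule, the top 20 higher and 10 lower genes against other cells and the top 12 higher genes against acinar cells by the interval bound nearest to 1, and up to 5 genes per list with the most member UMIs. Mitochondrial, ribosomal, predicted, sex-linked and acinar secretory genes were left out of the ranking. The genes lowest against acinar cells by that ranking are not described, since they mark fibroblasts, macrophages and red cells in the mixed acinar set. Where a list's other genes are named, they were chosen after their values were seen. The members and the lists were chosen with earlier results of these data known. A few listed genes are left out of the text, while counts and medians of the lists include every measured gene.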

Additional observations from a re-analysis of the deposited data

Results flagged for a closer look

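Barcodes outside the quality limits are not used in the comparisons. Of 857 such EYFP positive barcodes 38 met all gene conditions of the rule, a share of 4.43% (95% Clopper-Pearson interval 3.16 to 6.04%). Of 192 such EYFP negative barcodes 0 did, a share with a 95% Clopper-Pearson upper bound of 1.90%, or of up to 1.56% when the limit is set at 3 barcodes. The 38 barcodes had a median of 832 UMIs with 27.7% of UMIs in mitochondrial genes, and the ductal identity list summed to 3405 CPM in them.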

How the results depend on the processing

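No paired analysis was possible because each group is 1 library. The cause of the changes below was not tested except where a setting removes cells, UMIs or genes by its construction. The EYFP positive members numbered 51 at 500 genes and 10% mitochondrial UMIs, and 28 as deep members only. The EYFP negative members numbered 0 without members holding markers of other types and 1 without shared barcodes. Genes higher and lower than in other cells numbered 172 and 368 with cells thinned to 500 UMIs and 699 and 652 at a minimum of 100 UMIs. Against acinar cells they numbered 101 and 67 thinned, and 374 and 147 at 100 UMIs. Lower genes numbered 2390 against other cells and 1304 against acinar cells as a mean over cells. Without members holding markers of other types, 1291 genes were higher than in other cells and 513 than in acinar cells. With deep members and comparison cells of 5000 UMIs or more, 310 genes were lower than in acinar cells, and 2313 were higher than in the 35 stricter acinar cells. The share of higher genes against acinar cells, 22.6%, was 14.5% without members holding such markers and 53.7% against the stricter acinar cells. That of lower genes, 11.1%, was 17.2% without such members, 23.5% as a mean over cells and 19.0% thinned. It was 6.59% with deep members and comparison cells of 5000 UMIs or more. Against other cells the share of higher genes, 21.8%, was 11.2% thinned, and that of lower genes, 16.8%, was 26.8% as a mean over cells. All other counts of genes and members stayed within 1.5 times the reported one.

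Single results reported as at least 2-fold higher or lower changed sign as follows, on the log2 scale. The cell cycle list against other cells was -0.03 without members holding markers of other types and -0.33 as a mean over cells. Ptf1a against other cells was 0.17 as a mean over cells and 0.06 thinned. Against the stricter acinar cells the MHC class II list was 1.66 and the complement and acute phase list 4.76, or 2.16 with genes at 0 set to the floor of 3 UMIs. Anxa3 and C3 had no UMI there, with lower bounds of 1.87 and 2.16. Smaller reported values were not screened for a change of sign, and some did change. The median over all tested genes against other cells, reported as 0.26, was -0.07 as a mean over cells and -0.12 thinned. The acinar secretory list against other cells turned negative without the acinar-rich members. For 5 gene folds, among them Aqp1 and S100a6 against the stricter acinar cells, 1 side had no UMI and the floor left no direction, so they have no value. Of the list medians 612 stayed within the interval of the reported value and 48 moved beyond it with the same or an uncalled sign. For the gene folds these numbers were 2294 and 284. The 2294 also include any fold with no UMI on 1 side whose lower bound the reported value passed. Both totals pool all settings, among them the higher UMI minimum, under which all 159 gene folds stayed. That minimum only sets which genes are counted. As a mean over cells 71 gene folds stayed, 87 moved and 1 changed sign. With cells thinned the numbers were 67, 65 and 1. Against the stricter acinar cells 31 gene folds stayed, 33 moved and 2 changed sign. Of the list medians in that setting 8 stayed, 9 moved and 2 changed sign. Depth limits the 124 shallow members most, since a cell of 753 UMIs shows few transcripts of any 1 gene.

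The alternatives with shared barcodes, acinar-rich members, deep members, deep comparison cells, stricter acinar cells, and Gm42418 and Lars2 out of the total were chosen after seeing the data.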

Other observations

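The deep member with the most mitochondrial UMIs had 18.1% of its UMIs in mitochondrial genes, close to the limit of 20%, against a median of 4.12% over the 28 deep EYFP positive members and 6.42 and 6.01% in the 2 EYFP negative members. The deepest member held 8.18% and the 5 deepest 28.2% of all EYFP positive member UMIs. The deepest acinar cell held 90166 UMIs.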
